A study of Mus musculus with 16 samples.

Results

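Collagen genes encode the chains that wind into triple helices and build the fibres, sheets and anchors of the extracellular matrix. They were chosen by their symbols alone, which had to read Col, a number, the letter a and a number, a rule that uses no measured value. The rule found 44 of the 19439 genes that were listed in at least 1 library. By the usual structural classes these were 11 fibrillar chains, 6 basement membrane chains, 12 chains of networks, beaded filaments or anchoring fibrils, 9 chains of fibril-associated collagens (FACITs), 4 transmembrane chains and 2 multiplexins.

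The data are RNA-seq libraries of ear skin from 16 BALB/c mice aged 8 weeks, 1 library per mouse. Every mouse had imiquimod (IMQ), a drug that activates Toll-like receptor signalling and causes psoriasis-like inflammation, applied to the ear, so no group is untreated skin. Mice also had daily intradermal injections, planned for 6 days, of 10 µl lysophosphatidylcholine (LPC, 10 mM; a phospholipid with a single fatty acid chain) or 10 µl saline as vehicle, and each treatment had 4 mice taken at day 4 and 4 at day 7. A group is named here by its injection and day; the labels call the vehicle groups IMQ. Titles of the samples set the day, since names of the files give other days. Nothing in the labels says whether mice shared a cage or litter, so p-values measure the spread between these 16 mice.

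Fibrillar collagens, above all types I and III, form the load-bearing fibres of the dermis and are made mainly by fibroblasts, while type V chains help to start and to size those fibres. Type IV collagen is the sheet-forming collagen of basement membranes: the chains of Col4a1 and Col4a2 are found in nearly all of them, and those of Col4a5 and Col4a6 in fewer, the epidermal basement membrane included. Type VI makes beaded microfilaments around cells, type VII anchors the epidermis to the dermis, type XVII sits in the hemidesmosomes of basal keratinocytes, and FACITs such as types XII and XIV decorate the surface of fibrils.

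Totals ran from 18704197 to 20131513 expected counts per library. The epidermal keratins marked every library as skin, with Krt14 between 4153 and 10799 FPKM (fragments per kilobase of transcript, scaled to the mapped fragments of the library) and Krt5 between 1393 and 4619. The libraries also held RNA of other ear tissues in very unequal amounts. The summed FPKM of 15 skeletal muscle markers ran from 190.5 to 23030, and that of 12 cartilage markers from 35.65 to 3450. LPC day 7 mice 1 and 3 stood apart from mice 2 and 4 of their group: their cartilage marker sums were 46.5 and 35.6 FPKM against 747 and 751, and their fibroblast marker sums (12 genes) 1000 and 917 against 2111 and 2298. In whole tissue, fewer cells of a type and less RNA per cell cannot be told apart.

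All 44 collagen genes passed the filter on low counts, and 43 were listed in every library; Col6a5 was listed at 0 in vehicle day 7 mouse 2. Mean FPKM over the 16 libraries spanned 5410-fold. It was at least 10 for 17 members and below 1 for 11. The most abundant were Col3a1 (213 FPKM), the hemidesmosomal Col17a1 (157), Col1a2 (145) and Col1a1 (144), followed by the type VI chains Col6a2 (71.2) and Col6a1 (67.4). Col17a1 was the most abundant collagen gene in all 8 libraries of day 4, and in 1 library each of vehicle day 7 and LPC day 7. Col3a1 was first in the other 6 libraries, 3 of each day 7 group.

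**Figure D1:**
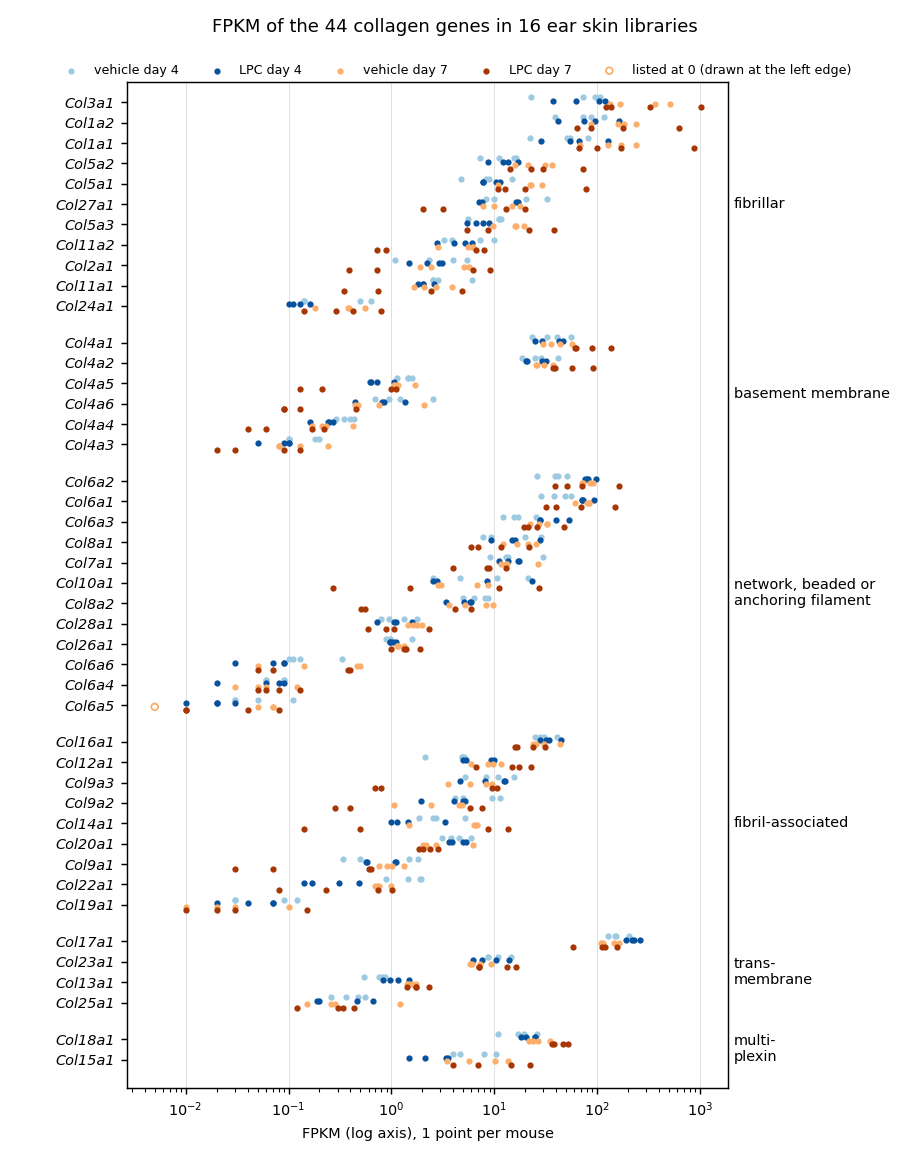
FPKM of each collagen gene (rows, grouped by structural class and sorted by mean) in each of the 16 mice on a log axis, coloured by group; an open circle marks the single library in which a member was listed at 0. Col3a1, Col17a1, Col1a2 and Col1a1 have the highest means, the type VI chains Col6a4, Col6a5 and Col6a6 lie near the left edge, and LPC day 7 mouse 2 gives the highest points of many fibrillar genes.

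Fibrillar transcripts made up 34.5% ± 7.71 (SD, n = 4) of all collagen FPKM in vehicle day 4 and 30.9% ± 9.66 in LPC day 4. At day 7 the shares were 53.8% ± 11.3 with vehicle and 54.0% ± 16.4 with LPC. Single libraries ran from 19.1% to 42.7% at day 4 and from 37.9% to 75.6% at day 7, so the days overlapped. The 4 transmembrane genes, mostly Col17a1, had shares of 23.7% ± 5.87 and 25.8% ± 4.79 at day 4 and of 12.6% ± 6.05 and 12.5% ± 9.10 at day 7, in the same order of groups. These sums were not tested.

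The 5 comparisons were read from a single edgeR quasi-likelihood fit to all libraries: LPC against vehicle at each day, day 7 against day 4 within each treatment, and the LPC effect at day 7 minus that at day 4. A gene was called at a Benjamini-Hochberg adjusted p below 0.05 over 15782 genes. Each group serves in more than 1 comparison, so the values below stand side by side and are not independent of each other.

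For LPC against vehicle at day 4, edgeR called 0 of the 44 members, against 0.139% of all genes tested. At an unadjusted p below 0.05 there were 5 members higher and 3 lower, 8 of 44, against 19.2% of all genes. DESeq2 called 3 (Col6a2 and Col6a3 higher, Col22a1 lower). The share of all genes that DESeq2 called is not given here or below, so its counts do not single out the members. The 2 groups did not overlap in FPKM for 3 members that were higher with LPC (6.26% of all genes) and 5 that were lower (9.83% of all genes). The median log2 fold change of the members was -0.11, beside 0.00 over all genes tested.

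At day 7, LPC against vehicle again gave 0 calls among the collagen genes, although edgeR called 3.83% of all genes. Unadjusted p was below 0.05 for 5 members that were higher and 4 that were lower, 9 of 44, against 19.7% of all genes. DESeq2 called 4 (Col18a1, Col4a1 and Col4a2 higher, Col4a6 lower). Without overlap in FPKM stood 3 members higher (4.25% of all genes) and 1 lower (6.9% of all genes). The members' median log2 fold change was 0.08, and that of all genes 0.02.

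With vehicle, day 7 against day 4 had 0 called members and 0.0% of all genes called by edgeR. At an unadjusted p below 0.05 there were 10 members, all higher at day 7, against 13.0% of all genes. DESeq2 called Col13a1. Groups did not overlap in FPKM for 5 members that were higher at day 7 (2.62% of all genes) and for 0 that were lower (3.09% of all genes). Members had a median log2 fold change of 0.14, all genes 0.00.

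With LPC, 11 members rose from day 4 to day 7 and 1 fell. That is 25.0% of the members higher, against 6.87% of all genes, and 2.27% lower, against 4.13% of all genes. Of these 12, 11 changed more than 2-fold, the exception being Col13a1. By class the calls were 5 of 11 fibrillar genes, 3 of 6 basement membrane genes (Col4a6 being the 1 that fell), 0 of 12 network or filament genes, 1 of 9 FACIT genes, 1 of 4 transmembrane genes and both multiplexins. In FPKM the groups did not overlap for 5 members that were higher (5.85% of all genes) and 2 that were lower (13.0% of all genes). The median log2 fold change was 0.18 over the members and 0.03 over all genes.

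The count of 12 depended on single mice. It was 1 without LPC day 7 mouse 2, and 2, 0, 3 and 7 without LPC day 4 mouse 1, 2, 3 or 4. Counts without the other LPC day 7 mice lay within the range given in the last section. Over all 8 fits that left out 1 mouse, Col18a1 kept its call in 7, and Col4a1, Col4a2 and Col15a1 in 5 each. The log2 fold change ran from 0.97 to 1.16 for Col18a1 and from 1.14 to 1.54 for Col4a1. Fitted to these 2 groups alone it was 4, and limma on log2(FPKM + 0.1) gave 4 higher and 2 lower. Col18a1 was called in 17 of 18 alternative settings, Col15a1 in 14, and Col4a1 and Col4a2 in 13 each, while the called fibrillar genes were called in 4 to 8 of theirs.

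**Figure D2:**
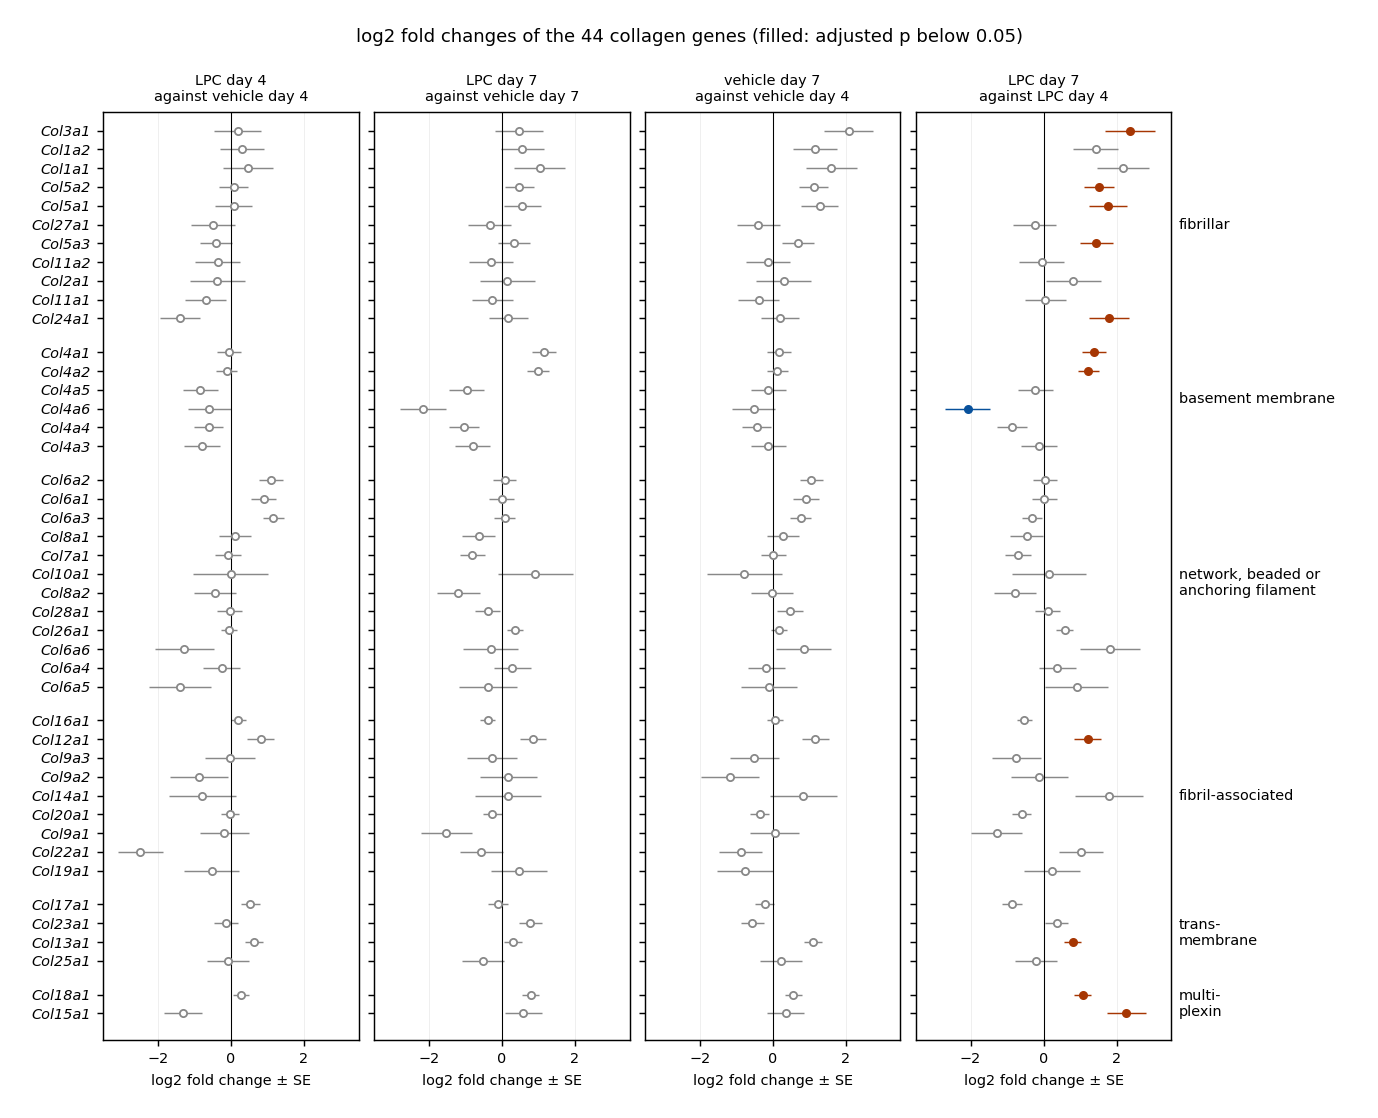
Log2 fold change with its standard error from edgeR for each collagen gene (rows, by class) in the 4 comparisons of 2 groups; filled points have an adjusted p below 0.05. Filled points appear in the LPC day 7 against LPC day 4 panel alone, 11 to the right of 0 and Col4a6 to the left.

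Among the fibrillar genes, Col3a1, the chain of type III fibres that are prominent in young and healing dermis, had the highest mean. Its FPKM was 22.9, 73.1, 94.6 and 108 in the 4 vehicle day 4 mice and 37.2, 62.1, 121 and 105 in LPC day 4. At day 7 it was 517, 134, 366 and 166 with vehicle and 123, 1017, 137 and 329 with LPC. With either treatment all day 7 mice lay above all day 4 mice, and LPC day 7 mouse 2 was far above the rest. Col3a1 rose by a log2 fold change of 2.37 ± 0.68 (SE) with LPC (edgeR adjusted p = 0.0400). With vehicle the difference was 2.08 ± 0.68 (adjusted p = 0.246), which did not pass the test.

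Col1a2, which encodes the second chain of type I collagen, had FPKM values of 39.2, 72.4, 116 and 86.7 in vehicle day 4 and 41.3, 74.55, 162 and 95.4 in LPC day 4. The vehicle day 7 mice had 237, 87.6, 184 and 158, and the LPC day 7 mice 63.8, 631, 86.9 and 177. Both day 7 groups overlapped the day 4 groups. Between LPC day 7 and LPC day 4 the log2 difference was 1.42 ± 0.61 (edgeR adjusted p = 0.127), and for Col1a1, its partner chain, 2.19 ± 0.71 (adjusted p = 0.0610). Between the vehicle days it was 1.16 ± 0.60 for Col1a2 and 1.61 ± 0.70 for Col1a1 (adjusted p of 0.432 and 0.354). Col1a1 ran from 22.2 to 874 FPKM over the 16 libraries. The ratio of Col1a1 to Col1a2 FPKM lay between 0.567 and 0.756 in vehicle day 4, between 0.683 and 0.789 in LPC day 4, between 0.780 and 0.998 in vehicle day 7, and between 0.964 and 1.39 in LPC day 7. The 4 LPC day 7 ratios thus lay above all 8 of day 4, and the 2 chains did not keep a fixed proportion.

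The type V chains, which co-assemble into type I fibrils, showed the same uneven LPC day 7 group. Col5a1 was at 4.74, 8.36, 14.9 and 8.97 FPKM in vehicle day 4, at 7.86, 7.72, 11.5 and 10.3 in LPC day 4, at 29.3, 11.0, 22.9 and 22.04 in vehicle day 7, and at 10.9, 77.5, 12.7 and 19.9 in LPC day 7. Mouse 2 of LPC day 7 was the highest of all, and mouse 1 of that group lay within the LPC day 4 range in FPKM. In library-scaled counts the LPC day 7 mice all lay above the LPC day 4 mice. Col5a1 rose by 1.77 ± 0.52 on the log2 scale from LPC day 4 to LPC day 7 (edgeR adjusted p = 0.0430). Without LPC day 7 mouse 2 the difference was 0.78 (adjusted p = 0.17), and the call was lost in 6 of 8 fits that left out 1 mouse. Between the vehicle days the Col5a1 difference was 1.28 ± 0.51 (adjusted p = 0.316).

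Col5a2 FPKM was 7.32, 11.2, 16.4 and 15.6 (vehicle day 4), 8.64, 12.2, 13.7 and 17.1 (LPC day 4), 36.3, 16.01, 30.9 and 21.2 (vehicle day 7), and 14.2, 72.8, 22.9 and 29.8 (LPC day 7). For Col5a3 the values were 5.62, 11.8, 11.1 and 11.1, then 6.63, 5.40, 7.82 and 8.85, then 19.6, 9.83, 16.4 and 15.9, and last 5.40, 38.4, 8.75 and 21.9, in the same order of groups. In both genes the LPC day 7 and LPC day 4 mice overlapped in FPKM. In library-scaled counts they overlapped for Col5a3 but not for Col5a2. Col5a2 rose by 1.52 ± 0.41 (adjusted p = 0.0317) and Col5a3 by 1.45 ± 0.44 (adjusted p = 0.0489) between those groups, in log2 units by edgeR. Without LPC day 7 mouse 2 the differences were 0.93 (adjusted p = 0.10) and 0.87 (adjusted p = 0.17). Between the vehicle days they were 1.12 ± 0.41 (adjusted p = 0.282) and 0.69 ± 0.44 (adjusted p = 0.523).

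Col24a1, a fibrillar chain of low abundance here, was at 0.14, 0.14, 0.63 and 0.49 FPKM in vehicle day 4 and at 0.11, 0.10, 0.13 and 0.16 in LPC day 4. It stood at 0.56, 0.18, 0.39 and 0.38 in vehicle day 7 and at 0.14, 0.79, 0.42 and 0.29 in LPC day 7. The LPC day 4 mice were the most uniform group and lay at the low end. Its log2 rise from LPC day 4 to LPC day 7 was 1.79 ± 0.55 (edgeR adjusted p = 0.0496), a call lost in 7 of 8 fits that left out 1 mouse, and its LPC difference at day 4 was -1.40 ± 0.55 (adjusted p = 0.179). Between the vehicle days the Col24a1 difference was 0.20 ± 0.52 (adjusted p = 0.896).

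Fibroblast markers also moved in the comparison in which fibrillar genes were called, where edgeR called 6.87% of all genes higher. In LPC day 7 against LPC day 4, 12 of 12 fibroblast markers had a positive fold change. Of these, 2 were called higher (Pi16 and Prrx1), and the median log2 fold change was 0.83, beside 0.03 over all genes. The vehicle course from day 4 to day 7 also had 12 of 12 positive, with 0 called and a median of 0.55. Fibrillar genes had 8 of 11 positive, 0 called and a median of 0.69 in that vehicle course, beside 0.00 over all genes. The summed FPKM of the 12 ran from 1021 to 1451 in LPC day 4 and from 917 to 2298 in LPC day 7. It was 886 to 1220 and 1147 to 1398 in vehicle day 4 and day 7. LPC day 7 mice 1 and 3 had lower sums than any LPC day 4 mouse, and mice 2 and 4 higher ones. Ly6a weighed heavily in these sums, at 473 and 437 FPKM in mice 1 and 3 and 579 to 704 in LPC day 4. The mean log2 of library-scaled counts (CPM) weighs the 12 markers more evenly. By that mean, mice 1 and 3 (6.14 and 5.985) lay within the LPC day 4 range (5.50 to 6.338). Mice 2 and 4 lay above it (7.154 and 6.985). Skeletal muscle markers had 15 of 15 fold changes positive and 0 called, and their sums overlapped (190.5 to 1802 FPKM in LPC day 4, 203 to 10110 in LPC day 7). The part of these cells in the collagen result was not tested. With the muscle marker score as a covariate the Col3a1 difference was 1.64 (adjusted p = 0.19). Without LPC day 7 mouse 2, the log2 difference of Col3a1 was 1.41 (adjusted p = 0.14).

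Among the basement membrane genes, Col4a1 and Col4a2 rose together under LPC, while Col4a6 fell. Col4a1 and Col4a2 lie head to head on chromosome 8, as do Col4a5 and Col4a6 on chromosome X. The first pair kept a narrow ratio of levels while the other did not, and the part of this layout in the ratios was not tested. The 300 bases around each start (250 before and 50 after) are shown from RefSeq on the build GRCm38.p6, 5′ to 3′ on each gene's own strand. Capitals mark matches on either strand to the CCAAT box (CCAAT), the GC box (GGGCGG) and the core of the TATA box (TATAAA).
Col4a1, chr8:11312777-11313076, minus strand: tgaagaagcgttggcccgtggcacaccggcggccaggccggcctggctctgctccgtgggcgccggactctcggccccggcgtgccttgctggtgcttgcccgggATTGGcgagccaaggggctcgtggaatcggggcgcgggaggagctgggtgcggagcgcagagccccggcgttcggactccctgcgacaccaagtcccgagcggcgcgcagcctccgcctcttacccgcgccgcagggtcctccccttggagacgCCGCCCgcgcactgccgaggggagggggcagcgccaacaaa
Col4a2, chr8:11312555-11312854, plus strand: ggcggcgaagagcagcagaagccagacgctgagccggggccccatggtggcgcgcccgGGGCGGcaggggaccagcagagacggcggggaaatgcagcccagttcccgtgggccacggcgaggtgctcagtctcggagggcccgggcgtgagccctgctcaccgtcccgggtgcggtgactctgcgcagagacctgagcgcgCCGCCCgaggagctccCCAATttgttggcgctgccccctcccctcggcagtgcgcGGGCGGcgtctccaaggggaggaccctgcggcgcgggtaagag
Col4a6, chrX:141474027-141474326, minus strand: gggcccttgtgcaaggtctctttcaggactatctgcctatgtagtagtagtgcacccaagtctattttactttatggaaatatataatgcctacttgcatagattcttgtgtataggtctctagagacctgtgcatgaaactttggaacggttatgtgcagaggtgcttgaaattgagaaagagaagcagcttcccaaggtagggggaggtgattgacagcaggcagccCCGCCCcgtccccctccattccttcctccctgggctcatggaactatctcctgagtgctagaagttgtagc
Col4a5, chrX:141475169-141475468, plus strand: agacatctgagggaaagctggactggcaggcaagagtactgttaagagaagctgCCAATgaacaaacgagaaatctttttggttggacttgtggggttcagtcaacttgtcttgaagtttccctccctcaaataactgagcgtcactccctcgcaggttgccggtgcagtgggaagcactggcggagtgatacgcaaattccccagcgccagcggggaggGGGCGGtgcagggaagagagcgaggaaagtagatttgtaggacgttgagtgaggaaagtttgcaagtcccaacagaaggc
The starts used for the windows of Col4a1 and Col4a2 are 21 bases apart, and these windows share 78 bases. Those of Col4a6 and Col4a5 are 1343 bases apart and share none. The G and C content was 74.0% and 73.7% in the windows of Col4a1 and Col4a2, and 48.3% and 52.7% in those of Col4a6 and Col4a5. The annotated spans of the genes do not all begin at these window starts. Those of Col4a1 and Col4a2 overlap by 85 bases, and reads there cannot be assigned without the strand setting of the counting, which the labels do not give.

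Over the 38 RefSeq windows found for 35 of the 44 members, 60.5% held a GC box, beside 35.7% of 32851 promoter windows of the same length. A CCAAT box was in 34.2% against 37.4%, and a TATA core in 13.2% against 13.6%. These matches are descriptions of letters, and were not tested.

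Col4a1 FPKM was 32.4, 55.2, 23.3 and 40.6 in vehicle day 4, 29.15, 25.2, 46.4 and 42.4 in LPC day 4, 56.6, 35.9, 43.7 and 29.6 in vehicle day 7, and 62.1, 135, 61.05 and 89.6 in LPC day 7. All 4 LPC day 7 mice lay above the 12 others. It rose by a log2 fold change of 1.38 ± 0.33 from LPC day 4 to LPC day 7 (edgeR adjusted p = 0.0197). Against vehicle at day 7 the difference was 1.15 ± 0.32 (adjusted p = 0.0606), just outside the threshold.

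Its neighbour Col4a2 was at 24.7, 41.3, 18.8 and 28.6 FPKM in vehicle day 4 and at 21.0, 20.4, 31.9 and 29.3 in LPC day 4. Vehicle day 7 mice had 37.58, 26.3, 30.7 and 25.35, and LPC day 7 mice 38.6, 90.6, 37.59 and 57.6. At day 7 the lowest LPC mouse and the highest vehicle mouse were separated by only a hundredth of a unit. Col4a2 rose by 1.23 ± 0.29 (log2) from LPC day 4 to LPC day 7 (edgeR adjusted p = 0.0207) and differed by 0.98 ± 0.29 from vehicle at day 7 (adjusted p = 0.0724). Between the vehicle days the difference was 0.175 ± 0.32 for Col4a1 and 0.12 ± 0.29 for Col4a2 (adjusted p of 0.851 and 0.888). The ratio of Col4a1 to Col4a2 stayed between 1.17 and 1.62 over all 16 libraries, a span of 1.39-fold, while Col4a1 itself ranged from 23.3 to 135 FPKM.

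Col4a6 FPKM was 1.20, 0.95, 2.55 and 0.69 in vehicle day 4, 0.81, 0.85, 1.37 and 0.44 in LPC day 4, 0.47, 0.76, 0.44 and 2.08 in vehicle day 7, and 0.09, 0.13, 0.09 and 0.45 in LPC day 7. The LPC day 7 mice were the lowest apart from mouse 4, which lay just above LPC day 4 mouse 4 and vehicle day 7 mouse 3. Col4a6 fell by 2.08 ± 0.63 on the log2 scale from LPC day 4 to LPC day 7 (edgeR adjusted p = 0.0459). Its difference from vehicle at day 7 was -2.16 ± 0.63 (adjusted p = 0.0665), and without LPC day 7 mouse 4 that difference passed the test (-3.00, adjusted p = 0.021). Without other single mice it did not pass and was as small as -1.47 (adjusted p = 0.25). The called fall from LPC day 4 to LPC day 7 was lost in 6 of 8 such fits, with values from -2.92 to -1.76 and adjusted p of up to 0.13. Between the vehicle days the Col4a6 difference was -0.52 ± 0.59 (adjusted p = 0.741).

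The ratio of Col4a6 to Col4a5 ranged from 0.116 to 2.21, a 19.0-fold span, so this pair of neighbours was far looser than Col4a1 and Col4a2. Counts fell to 16 for Col4a5 and 12 for Col4a6, so counting error adds to that span. Among other chains, Col6a1 over Col6a2 spanned 1.5-fold, and Col5a1 over Col5a2, on different chromosomes, 1.92-fold. In LPC day 7 mouse 2, Col4a5 was at 1.12 FPKM beside 0.13 for Col4a6, while mice 1 and 3 were low in both, with Col4a5 at 0.13 and 0.21. Col4a3 and Col4a4, the chains best known from kidney glomeruli, had means of 0.11 and 0.24 FPKM, and their spans overlap by 114 bases.

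**Figure D3:**
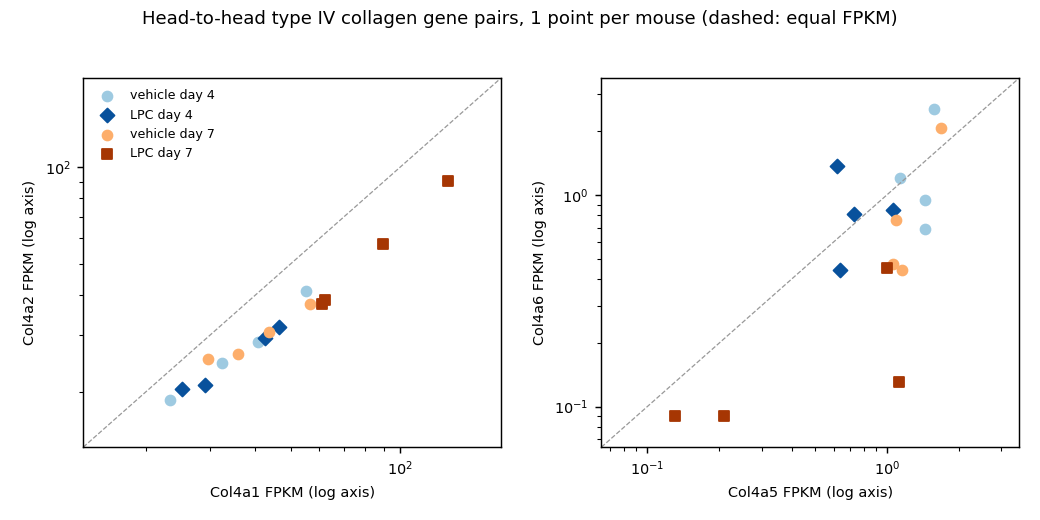
FPKM of Col4a2 against Col4a1 (left) and of Col4a6 against Col4a5 (right) in the 16 mice, on log axes, with a dashed line where both are equal. The left pair follows a narrow band, with a ratio between 1.17 and 1.62, while the right pair scatters and 3 LPC day 7 mice have Col4a6 at or below 0.13 FPKM.

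Endothelial cells are among the main makers of the Col4a1 and Col4a2 chains, and their markers moved in the same comparison. All 9 endothelial markers had a positive fold change from LPC day 4 to LPC day 7, and 4 were called higher (Cdh5, Kdr, Tie1 and Pecam1). Of all genes, 6.87% were called higher and 4.13% lower in that comparison. The summed FPKM of the markers was 105.8 to 157.6 in LPC day 4 and 114 to 414.5 in LPC day 7. In vehicle day 7 the sum was 134.5 to 212.3. In LPC day 7 mice 1 and 3 it was 114 and 137, within the LPC day 4 range, although Col4a1 was at 62.1 and 61.05 FPKM there. Basal keratinocyte markers overlapped between the groups (8888 to 9649 in LPC day 4, 7740 to 15380 in LPC day 7), and 1 of 10 fell (Dst). The part of these cell types in the type IV result was not tested.

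In the network and filament class, the 3 main chains of type VI collagen were the members higher with LPC at day 4 without overlap in FPKM. The smallest unadjusted p of that comparison was that of the FACIT gene Col22a1, which was lower (0.00115, beside 0.00121 for Col6a3, by edgeR). Col6a1 was at 28.2, 38.0, 55.3 and 49.2 FPKM in vehicle day 4 and at 70.9, 72.1, 71.2 and 92.45 in LPC day 4. At day 7 it was at 84.1, 61.3, 83.0 and 79.9 with vehicle and 39.98, 150.35, 31.98 and 70.4 with LPC. All LPC day 4 mice were above all vehicle day 4 mice, whereas at day 7 the LPC mice lay on both sides of the vehicle mice.

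Col6a2, the neighbour of Col6a1 on chromosome 10, was at 25.95, 39.1, 51.5 and 42.1 FPKM in vehicle day 4, at 76.8, 79.6, 80.75 and 97.4 in LPC day 4, at 91.35, 70.8, 85.97 and 73.2 in vehicle day 7, and at 51.2, 164, 39.0 and 70.6 in LPC day 7. Col6a3, the largest chain of the trimer, had 12.3, 16.9, 25.5 and 15.6, then 53.7, 27.8, 27.8 and 39.8, then 32.7, 22.3, 32.9 and 27.0, and last 19.4, 47.4, 21.3 and 26.3. In all 3 genes the day 4 groups did not overlap and the day 7 groups did.

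The LPC difference at day 4 was 0.89 ± 0.35 for Col6a1, 1.10 ± 0.32 for Col6a2 and 1.15 ± 0.29 for Col6a3 in log2 units, with edgeR adjusted p of 0.179, 0.0855 and 0.0667. None passed the test in the fit to all libraries. All 3 passed when the fit held the 2 day 4 groups alone, and Col6a3 also without vehicle day 4 mouse 3 (adjusted p = 0.035). At day 7 the differences of Col6a2 and Col6a3 were 0.08 ± 0.32 and 0.07 ± 0.29, and that of Col6a1 was smaller still. The LPC effect at day 7 minus that at day 4 was -0.89 ± 0.49, -1.02 ± 0.45 and -1.08 ± 0.41 (adjusted p of 0.358, 0.272 and 0.209), so a change of the effect between the days did not pass either. From day 4 to day 7 with vehicle, the log2 differences were 0.91 ± 0.35, 1.06 ± 0.32 and 0.77 ± 0.29.

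Fibroblast markers at day 4 summed to 886 to 1220 FPKM with vehicle and 1021 to 1451 with LPC, overlapping, with 8 of 12 fold changes positive and 0 called. Skeletal muscle markers did not overlap: 2468 to 23030 FPKM with vehicle and 190.5 to 1802 with LPC, with 15 of 15 fold changes negative, 0 called and a median of -4.34. The level of muscle RNA and the LPC group therefore cannot be told apart at day 4. With the muscle marker score as a covariate, the Col6a3 difference was 1.50 (adjusted p = 0.32).

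**Figure D4:**
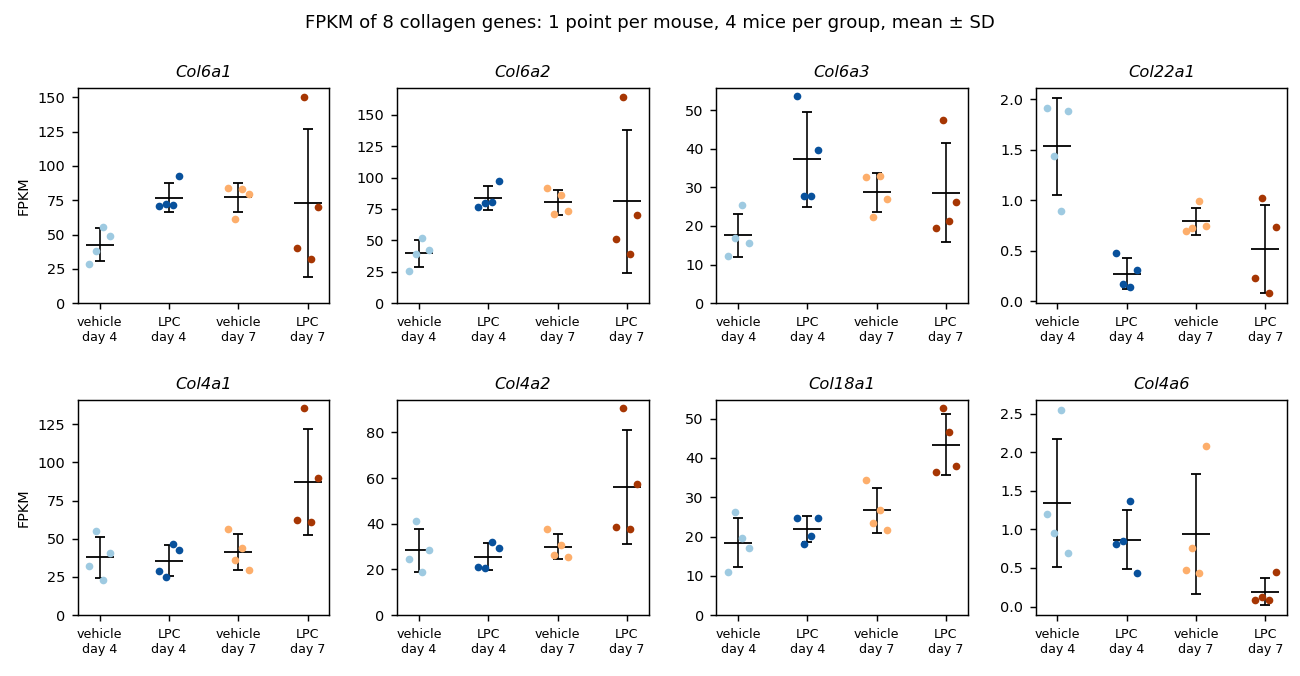
FPKM of 8 collagen genes in each mouse (points) with the group mean and SD (bars), 4 mice per group. The Col6a1, Col6a2 and Col6a3 points of LPC day 4 lie above those of vehicle day 4, Col22a1 shows the opposite order, and Col4a1, Col4a2 and Col18a1 are highest in LPC day 7.

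Among the other members of this class, the anchoring fibril gene Col7a1 averaged 13.95 FPKM, and its LPC difference at day 7 was -0.81 ± 0.35 (log2; edgeR adjusted p = 0.217). Col8a1 and Col8a2, short-chain network collagens, averaged 15.98 and 5.39 FPKM. Col10a1, the collagen of hypertrophic cartilage, ran from 0.27 to 27.3 FPKM; its span lies wholly within that of another gene, Nt5dc1, so its reads are uncertain without strand. The later type VI chains Col6a4, Col6a5 and Col6a6 were near the lower limit of the data, at 0.07, 0.04 and 0.19 FPKM.

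Of the FACIT genes, Col12a1, whose product binds type I fibrils in tissues under tension, had a called change. Its FPKM was 2.12, 4.85, 4.90 and 5.10 in vehicle day 4, 5.29, 5.02, 9.93 and 9.23 in LPC day 4, 11.7, 9.82, 8.67 and 6.01 in vehicle day 7, and 14.8, 17.3, 22.9 and 6.64 in LPC day 7. LPC day 7 mice 1, 2 and 3 were the highest of all 16, and mouse 4 lay inside the LPC day 4 range. Col12a1 rose by 1.21 ± 0.36 (log2) from LPC day 4 to LPC day 7 (edgeR adjusted p = 0.0458), and the call was lost in 7 of 8 fits that left out 1 mouse. The other comparisons gave 1.17 ± 0.36 from day 4 to day 7 with vehicle (adjusted p = 0.232), and 0.81 ± 0.36 and 0.85 ± 0.36 for LPC against vehicle at day 4 and day 7 (adjusted p of 0.239 and 0.202).

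Col16a1, the most abundant FACIT gene, ranged from 16.01 to 44.7 FPKM; its span overlaps that of Gm12963 by 606 bases, so part of its reads is uncertain without strand. It was at 24.7, 30.1, 41.1 and 27.8 in vehicle day 4, 28.02, 32.2, 33.7 and 44.7 in LPC day 4, 25.3, 30.5, 23.7 and 43.1 in vehicle day 7, and 16.01, 31.04, 16.8 and 23.6 in LPC day 7. LPC day 7 mice 1 and 3 were the lowest of all 16. From LPC day 4 to LPC day 7 the log2 difference was -0.52 ± 0.21 (edgeR adjusted p = 0.107).

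Col22a1, a collagen of the junction between muscle and tendon, was at 1.92, 1.44, 0.89 and 1.89 FPKM in vehicle day 4 and at 0.48, 0.17, 0.14 and 0.31 in LPC day 4. It was at 0.70, 0.73, 0.99 and 0.75 in vehicle day 7 and at 0.23, 1.02, 0.08 and 0.74 in LPC day 7. The day 4 groups did not overlap, and at day 7 LPC mice 1 and 3 were low while mice 2 and 4 lay with the vehicle mice. The LPC difference at day 4 was -2.48 ± 0.62 in log2 units (edgeR adjusted p = 0.0662). Skeletal muscle markers had the same pattern over the mice: their sums were 549 and 203 FPKM in LPC day 7 mice 1 and 3, and 8908 and 10110 in mice 2 and 4. With the muscle marker score as a covariate, the Col22a1 difference at day 4 was -0.75 (adjusted p = 0.74). The muscle marker sums of the day 4 groups did not overlap, so this fit cannot separate muscle RNA from LPC. The part of muscle in the Col22a1 values was not tested.

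Col9a1, a chain of the type IX collagen that coats cartilage fibrils, was at 0.49, 0.34, 1.80 and 1.47 FPKM in vehicle day 4, 0.57, 1.09, 0.58 and 1.10 in LPC day 4, 0.76, 0.91, 1.02 and 1.32 in vehicle day 7, and 0.03, 0.64, 0.07 and 0.60 in LPC day 7. All LPC day 7 mice were below all vehicle day 7 mice, with mice 1 and 3 near 0. The difference at day 7 was -1.52 ± 0.70 in log2 units (edgeR adjusted p = 0.242).

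Mice 1 and 3 of LPC day 7 were the lowest 2 of all 16 libraries for 18 members. These included Col2a1, Col9a1, Col9a2, Col9a3, Col10a1, Col11a1 and Col11a2, the collagens best known from cartilage (the span of Col9a3 overlaps that of Tcfl5 by 237 bases), and also the skin collagens Col7a1, Col4a5, Col4a6 and Col16a1. Col2a1 was at 0.39 and 0.73 FPKM in these mice and at 9.18 and 6.17 in mice 2 and 4, a wider gap than that between any group means (2.42 to 4.12). The cartilage marker sums of the same 4 mice were 46.5, 35.6, 747 and 751 FPKM; over all groups Matn1, Matn3 and Epyc were listed at 0 in some libraries, and Acan was at 2.60 and 3.82 FPKM in mice 1 and 3. LPC day 7 mouse 2, in turn, was the highest of the 16 for 20 members. The part of cartilage in these members' values was not tested. From LPC day 4 to LPC day 7 Sox9 was called lower among the 10 cartilage markers tested. In that comparison 6.87% of all genes were called higher and 4.13% lower. Of the other cell type lists, its calls were 3 of 8 macrophage markers higher (Fcgr1, Cd68 and Adgre1) and 1 of 6 neutrophil markers higher (Cxcr2). Of 11 hair follicle markers 1 was lower (Shh), and of 7 pericyte and smooth muscle markers 1 was higher (Des) and 1 lower (Cspg4). Calls were 0 of 9 adipocyte and 0 of 7 Schwann cell markers.

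**Figure D5:**
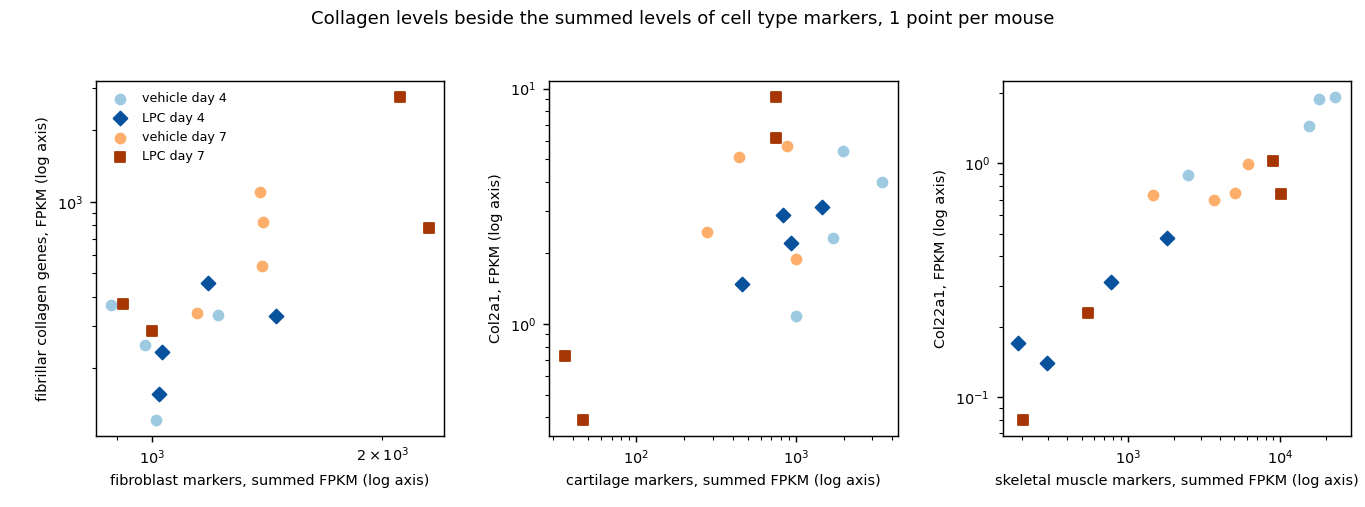
Summed FPKM of the 11 fibrillar genes against that of 12 fibroblast markers (left), Col2a1 FPKM against summed cartilage markers (middle) and Col22a1 FPKM against summed skeletal muscle markers (right), 1 point per mouse, all axes log. LPC day 7 mice 1 and 3 sit at the low left of the middle panel (Col2a1 at 0.39 and 0.73), and the 4 LPC day 4 mice are among the low points of the right panel (Col22a1 at 0.14 to 0.48).

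Of the transmembrane genes, Col13a1 was called in a single comparison and Col17a1, the most abundant, just missed the threshold there. Col17a1 FPKM was 151, 153, 206 and 127 in vehicle day 4, 258, 191, 231 and 218 in LPC day 4, 108, 163, 113 and 146 in vehicle day 7, and 155, 58.9, 120.2 and 110.5 in LPC day 7. The LPC day 4 mice were the highest group, overlapping vehicle day 4 through its mouse 3, and in FPKM all lay above LPC day 7. In CPM the LPC day 4 and LPC day 7 mice overlapped. Between LPC day 7 and LPC day 4 the log2 difference was -0.86 ± 0.27 (edgeR adjusted p = 0.0520), and limma on log2(FPKM + 0.1) called it lower. Markers of basal keratinocytes, the cells that make Col17a1, summed to 7740 to 15380 FPKM in LPC day 7 and 8888 to 9649 in LPC day 4, and their part in this difference was not tested.

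Col13a1, found at focal adhesions and at the neuromuscular junction, was at 0.54, 0.87, 0.81 and 0.75 FPKM in vehicle day 4, at 1.16, 0.97, 0.83 and 1.50 in LPC day 4, at 1.57, 1.50, 1.43 and 1.72 in vehicle day 7, and at 1.74, 2.31, 1.74 and 1.41 in LPC day 7. With vehicle the days did not overlap, and with LPC they overlapped through mouse 4 of each day. Col13a1 rose by 0.79 ± 0.24 (log2) with LPC (edgeR adjusted p = 0.0473), a call lost in 5 of 8 fits that left out 1 mouse, and with vehicle the difference was 1.11 ± 0.24 (adjusted p = 0.174). The larger difference missed the threshold where edgeR called 0.0% of all genes, since the adjustment depends on all genes of a comparison.

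Col23a1, a transmembrane collagen of epidermis and other epithelia, was at 8.76, 10.8, 8.68 and 14.6 FPKM in vehicle day 4, at 7.54, 6.18, 10.4 and 13.8 in LPC day 4, at 6.09, 7.20, 5.87 and 9.24 in vehicle day 7, and at 16.1, 7.12, 13.3 and 7.10 in LPC day 7. Mice 1 and 3 of LPC day 7, low for many other members, were high here. The LPC difference at day 7 was 0.78 ± 0.32 in log2 units (edgeR adjusted p = 0.187). Col25a1 averaged 0.39 FPKM.

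Both multiplexins, collagens of basement membranes that carry large side chains and release anti-angiogenic fragments, rose under LPC from day 4 to day 7. Col18a1 was at 10.9, 26.2, 19.6 and 17.15 FPKM in vehicle day 4, at 24.7, 18.1, 20.2 and 24.8 in LPC day 4, at 34.5, 23.6, 26.8 and 21.6 in vehicle day 7, and at 36.45, 52.7, 46.7 and 37.8 in LPC day 7. The 4 LPC day 7 mice lay above the 12 others, and mice 1 and 3 were not apart from mice 2 and 4. Col18a1 rose by 1.08 ± 0.23 in log2 units (edgeR adjusted p = 0.0139), the smallest p among the members, and by no less than 0.97 when any single mouse of the 2 groups was left out; without LPC day 4 mouse 2 its adjusted p was 0.051. Against vehicle at day 7 the difference was 0.78 ± 0.23 (adjusted p = 0.0696). From vehicle day 4 to vehicle day 7 Col18a1 differed by 0.56 ± 0.23 (adjusted p = 0.324).

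Col15a1, found at the basement membranes of vessels, muscle and nerve, was at 3.97, 10.35, 4.67 and 7.99 FPKM in vehicle day 4, at 3.55, 1.47, 2.13 and 3.42 in LPC day 4, at 13.6, 3.44, 10.2 and 5.69 in vehicle day 7, and at 3.96, 22.3, 6.96 and 14.6 in LPC day 7. The LPC day 4 mice were below both vehicle day 4 and LPC day 7 without overlap. Col15a1 rose by 2.27 ± 0.54 (log2) from LPC day 4 to LPC day 7 (edgeR adjusted p = 0.0199). With vehicle the Col15a1 difference over the same days was 0.35 ± 0.51 (adjusted p = 0.806). Its LPC difference was -1.33 ± 0.52 at day 4 (adjusted p = 0.185) and 0.59 ± 0.51 at day 7 (adjusted p = 0.584). With the muscle marker score as a covariate the day 4 difference was -0.04 (adjusted p = 0.99) and the rise with LPC 1.56 (adjusted p = 0.034). At day 4 that score and the LPC group cannot be told apart.

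The test of whether the LPC effect differed between the days called 0 members by edgeR and 0 by DESeq2, with 0.0% of all genes called by edgeR. At an unadjusted p below 0.05 there were 6 of 44 members, against 16.9% of all genes: Col4a1, Col4a2, Col15a1 and Col22a1 with a more positive effect at day 7, and Col6a2 and Col6a3 with a less positive one. The difference for Col4a1 was 1.21 ± 0.45 in log2 units (adjusted p = 0.209), and that for Col15a1 1.92 ± 0.73 (adjusted p = 0.214). All 11 fibrillar genes had a positive difference, with a median of 0.43 beside 0.00 over all genes, and none had an unadjusted p below 0.05.

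Collagen chains need helper enzymes, cleavage and crosslinking before they form a matrix, and proteases remove them again. At day 4, LPC against vehicle had 0 called genes by edgeR in any of the 6 lists of such genes, where 0.139% of all genes were called. Of all genes, 19.2% had an unadjusted p below 0.05 in this comparison. At that level there were 8 of 22 folding and modification genes, 3 of 13 processing and 5 of 12 degradation genes. The other lists had 5 of 11 receptor, 1 of 10 proteoglycan and 5 of 14 regulator genes. Several differences at day 4 were as large as those at day 7 and missed the threshold narrowly: the collagenase Mmp13 by 4.42 ± 0.88 (adjusted p = 0.056), the stromelysin Mmp3 by 3.78 ± 0.87 (0.059) and P4ha1 by 0.98 ± 0.20 (0.056), in log2 units. The summed FPKM of the degradation list was 405.1 to 510.6 with vehicle and 780.0 to 1101 with LPC at day 4, without overlap, and 410.5 to 524.9 and 583.7 to 1574 at day 7. These 3 genes were chosen after their values were seen. At day 7, when 3.83% of all genes were called, 3 of 22 folding and modification genes were higher with LPC: P4ha1, a subunit of prolyl 4-hydroxylase, by 0.90 ± 0.20, and the lysyl hydroxylases Plod1 and Plod3 by 0.80 ± 0.21 and 0.79 ± 0.20 in log2 units (edgeR adjusted p of 0.029, 0.047 and 0.046). Of 12 degradation and uptake genes 4 were higher, namely Mmp13 (3.37 ± 0.85), the gelatinase Mmp9 (2.54 ± 0.67), the membrane-bound Mmp14 (0.74 ± 0.17) and the lysosomal protease Ctsl (1.02 ± 0.18). Cd93 was the 1 gene called among the 11 tested of the receptor list, and its product is not an established collagen receptor. Tgfb1 and Cyr61 were called among 14 TGF-beta and matrix regulators. All were higher, while 0 of 13 processing and crosslinking genes and 0 of 10 small leucine-rich proteoglycans were called.

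The LPC effect at day 7 minus that at day 4 was -1.05 ± 1.11 for Mmp13 and -0.08 ± 0.29 for P4ha1 (adjusted p of 0.66 and 0.91).

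From LPC day 4 to LPC day 7, 6 of 22 folding and modification genes rose and 0 fell, where 6.87% of all genes rose and 4.13% fell. They included Creb3l1, a transcription factor that drives collagen secretion (1.62 ± 0.27), the prolyl 3-hydroxylase P3h1 (1.18 ± 0.22), Plod1 (0.87 ± 0.21) and the collagen chaperone Serpinh1 (1.74 ± 0.46), in log2 units with edgeR adjusted p of 0.0046, 0.0081, 0.021 and 0.030. Serpinh1, like the fibrillar genes, was highest in LPC day 7 mouse 2 (187 FPKM, with 126 in mouse 4 and 43.0 and 38.0 in mice 1 and 3). Of the processing and crosslinking genes, the lysyl oxidase relatives Loxl1 (1.49 ± 0.38) and Loxl2 (0.92 ± 0.28) rose and Loxl4 (-2.20 ± 0.37) and the procollagen enhancer Pcolce2 (-1.51 ± 0.40) fell, 4 of 13 in all. In the degradation list 2 of 12 rose (Mmp14 and Ctsl), and in the receptor list 2 of 11 rose (Cd93 and Lair1) and 1 fell (Ddr1). Tgfb1 and Tgfbi rose and Ctgf fell among the 14 regulators, and 0 of 10 small leucine-rich proteoglycans were called. With vehicle over the same days 0 genes of these lists were called, nor was any called when the LPC effect at day 7 was set against that at day 4. These list counts were not recomputed under the alternatives.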

How the data were processed

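RNA-seq of ear skin from 16 mice, 4 per group, was analysed; groups and mouse numbers come from the sample titles. Per the labels' protocols, the authors aligned BGISEQ-500 reads to GRCm38 with Bowtie2 and quantified genes by RSEM. No version or strand setting is stated there. The deposited files hold, per gene, an RSEM expected count and an FPKM value scaled by the authors for transcript length and depth. RSEM shares reads among similar genes, so values of related chains carry that uncertainty. A gene missing from a file was taken as 0.

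Expected counts were rounded and filtered with filterByExpr, which kept 15782 genes and removed 3657. edgeR 4.0.16 (R 4.3.3) fitted a quasi-likelihood model with TMM factors (0.836 to 1.11) and 1 mean per group, with 12 residual degrees of freedom; common dispersion was 0.122. Log2 fold changes carry edgeR standard errors. The fit was tested on simulated data. FPKM was used for levels, since it is per length. No 2 libraries of a group agreed within sampling noise (mean chi-square per gene at least 15.9). With totals of 18704197 to 20131513, a count of 0 allows up to 3 counts, or 0.149 to 0.160 CPM, for counting error only.

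Alternatives were median-of-ratios factors, other filters, DESeq2 1.42.0, limma 3.58.1 on log2 FPKM, a fit to the compared groups, a replicate block, a muscle marker covariate and leaving out each mouse. The collagen classes, the pathway and marker lists and the members were chosen with earlier results of these data known. Values in every library are given for members called in any comparison, for up to 3 per class with an unadjusted p below 0.05 in an LPC comparison, and for the 2 most abundant of each class; up to 4 called genes are named per pathway list. Marker lists of other cell types were summed in FPKM.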

Additional observations from a re-analysis of the deposited data

Results flagged for a closer look

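In 84 groups of 4 mice, those of the 21 members shown library by library, the gap between the most extreme mouse and its nearest neighbour was compared with the range of the group. It exceeded Dixon's 95% critical value in 5 groups, and chance alone flags about 1 in 20, or 4.2 of 84. Col5a1 was at 77.5 FPKM in LPC day 7 mouse 2, with the other 3 mice between 10.9 and 19.9. Col5a3 was at 5.62 FPKM in vehicle day 4 mouse 1, with the others between 11.1 and 11.8. Col12a1 was at 2.12 FPKM in that same mouse, with the others between 4.85 and 5.10. Col4a6 was at 0.45 FPKM in LPC day 7 mouse 4, with the others between 0.09 and 0.13. Col6a1 was at 92.45 FPKM in LPC day 4 mouse 4, with the others between 70.9 and 72.1.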

How the results depend on the processing

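For LPC against vehicle at day 4, where edgeR called 0 members, DESeq2 called 3, limma on log2(FPKM + 1) called 1, a fit to the 2 groups alone called 5 and leaving out single mice 0 to 2 (2 without vehicle day 4 mouse 3: Col6a3 and Col22a1). At day 7 the 0 became 4 with DESeq2, 2 with the muscle marker covariate (Col4a1 and Col4a2), and 0 to 1 with a mouse left out (1 without LPC day 7 mouse 4: Col4a6). Vehicle day 7 against day 4 had 1 call with DESeq2. For LPC day 7 against LPC day 4 the 12 calls became 6 with limma on log2(FPKM + 0.1), with and without a filter, 5 on log2(FPKM + 1), 4 with the 2 groups alone, 3 with the muscle covariate (Col12a1, Col15a1 and Col18a1), 1 with the replicate block (Col18a1), and 0 to 11 with a mouse left out. The limma split was 4 higher and 2 lower, beside 11 and 1 with edgeR. These changes follow in part from fewer samples where mice or groups were left out. Otherwise the cause was not tested. The share of all genes called under each alternative is not given, so these counts do not single out the members. The difference between the days kept 0 calls throughout, and no fold change reversed among those recomputed, namely the called ones and those with an unadjusted p below 0.05 for LPC against vehicle at either day; other fold changes were not recomputed. Mouse numbers did not pair the mice throughout. Of 24 same-numbered pairs, 9 deviated together with a correlation over 0.1 (range -0.596 to 0.539). Mice correlating best with their own number were 5 of 8 for LPC at day 4 and 0 of 8 in other comparisons. A pairing of the day 4 mice is therefore not settled, and the block result is given as a check. On the log2(FPKM + 0.1) scale the median of all genes moved to -0.12 in both comparisons of LPC day 7. Counting error limits the members below 0.1 FPKM, and 4 mice per group limit the rest. Read counts in place of FPKM gave fibrillar shares of 36.1%, 32.4%, 55.3% and 54.6% for vehicle and LPC at day 4 and at day 7.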
